A study of Mus musculus with 6 samples.

Results

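The ubiquitin ligases of muscle atrophy and the FOXO factors were followed in the mouse heart as 8 genes of the deposited count table, which holds 38293 genes. The genes were taken by their symbols, with earlier results of these data known. They were the ligases Fbxo32, Trim63, Trim54 and Trim55, the transcription factors Foxo1, Foxo3 and Foxo4, and myostatin (Mstn). All 8 were in the table, and 7 of them passed edgeR's filter on low counts and were tested among 14746 genes. Mstn did not pass it, with 1 to 8 counts per library.

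RNA-seq was performed on heart tissue of adult mice of strain C57BL/6J (backcrossed) 14 days after MI, made by a permanent ligation of the left anterior descending coronary artery. The samples labelled WT (3 mice) carried, per the methods, the floxed allele of Zeb2 (Zeb2 fl/fl), and the Zeb2 cKO samples (3 mice) carried the same allele together with a Cre recombinase under the Myh6 promoter, which is active in cardiomyocytes. Every mouse had an MI, so the comparison asked what the loss of ZEB2, a transcription factor, from cardiomyocytes did to these genes in the injured heart, and no uninjured heart entered it. The labels place the tissue at the border of the infarct whereas the methods name the remote zone, and the sources used here do not settle which was sequenced.

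Skeletal and heart muscle lose mass when contractile and other proteins are tagged with ubiquitin and degraded by the proteasome. Fbxo32 (atrogin-1, also MAFbx) is the substrate-binding F-box subunit of an SCF ubiquitin ligase, and Trim63, Trim55 and Trim54 encode MuRF1, MuRF2 and MuRF3, RING-type ligases that associate with titin in the sarcomere or with microtubules. FOXO factors are held out of the nucleus by the kinase Akt when insulin or IGF1 is present, and without that signal they enter it and activate genes that include Fbxo32 and Trim63. Myostatin, a TGF-beta family ligand secreted by skeletal muscle, limits muscle growth.

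The 3 MuRF genes and the 3 FOXO genes are paralogs, and their reads can be told apart only where their sequences differ. Shown here, for that reason, is the stretch of 75 coding bases with the fewest differences within each family, read from the Gencode M21 transcripts (GRCm38). Capitals mark bases that differ from the first gene of the family. The MuRF stretch lies in exon 2 of each gene, on the plus strand, at chr4:134316478-134316552 for Trim63, chr3:19645365-19645439 for Trim55 and chr5:31131133-31131207 for Trim54.
Trim63: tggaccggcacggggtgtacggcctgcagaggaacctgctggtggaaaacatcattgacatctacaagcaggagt
Trim55: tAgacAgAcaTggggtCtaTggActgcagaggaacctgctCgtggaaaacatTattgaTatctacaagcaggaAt
Trim54: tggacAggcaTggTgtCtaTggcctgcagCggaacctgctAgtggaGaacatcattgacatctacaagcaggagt
Even in this stretch Trim55 differed from Trim63 at 11 bases and Trim54 from Trim63 at 8. Over the aligned coding sequence, identity was 65.7% between Trim63 and Trim55, 67.8% between Trim63 and Trim54 and 64.3% between Trim55 and Trim54. The longest identical run of any MuRF pair was 28 bases.

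The FOXO stretch lies in the forkhead (DNA-binding) coding region and spans an intron, so its coordinates enclose that intron: chr10:42197878-42274866 on the minus strand for Foxo3 (exons 2 and 3 of 3), chr3:52269372-52345062 on the plus strand for Foxo1 and chrX:101255223-101258200 on the plus strand for Foxo4 (exons 1 and 2 of 3 in both).
Foxo3: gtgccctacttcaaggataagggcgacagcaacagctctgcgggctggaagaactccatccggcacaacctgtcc
Foxo1: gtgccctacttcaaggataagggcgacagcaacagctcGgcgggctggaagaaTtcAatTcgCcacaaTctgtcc
Foxo4: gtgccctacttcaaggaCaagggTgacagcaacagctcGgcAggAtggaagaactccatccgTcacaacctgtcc
Foxo1 and Foxo4 each differed from Foxo3 at 6 bases. The longest identical run was 38 bases, between Foxo3 and Foxo1, which is shorter than a read of 75 bases. Coding identity was 60.02% for Foxo3 and Foxo1, 58.2% for Foxo3 and Foxo4 and 53.5% for Foxo1 and Foxo4. Outside the families, Foxo1 was the 1 member whose transcript matched those of other genes over at least 75 bases at 95% identity or more, in 133 bases (1.54% of its length) shared with 5 genes, and its counts are uncertain to that extent.

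WT replicate 2 stood apart from the other libraries over all genes. Its log2 CPM (counts scaled to a library of 1000000 by edgeR's TMM method) differed from theirs by a root mean square of 0.709 to 0.846, against 0.354 to 0.455 among the other 5. The summed CPM of 20 cardiomyocyte marker genes was 41146 in it and 64163 to 78733 in the others, and all 20 were expressed in every library. The sum of 12 fibroblast markers was 10590 in WT replicate 2 and 1853 to 2573 in the others, and that of 12 macrophage markers 906 against 236 to 324. Endothelial markers (12 genes) summed to 689 CPM in it and to 807 to 984 CPM in the others. Skeletal muscle markers were at 25.95 to 44.3 CPM in all, most of it Mybpc2 (371 to 1849 counts, higher in all Zeb2 cKO mice) and Myl1 (103 to 613 counts, lower in all), each with an unadjusted p under 0.05 and an adjusted p of 0.957 in edgeR, with Myog at 0 counts in all 6 libraries and Myh1, Myh2 and Myh4 at no more than 6. The adipocyte markers summed to 44.0 to 107 CPM, most of it Plin4, which overlapped between the groups. Adig, Adipoq, Cidec, Plin1 and Retn were higher in all Zeb2 cKO mice, at 0 to 25 counts per library. Adig had a log2 fold change of 1.83 (edgeR unadjusted p = 0.00284, adjusted p = 0.957). Cfd, Cidea, Lep and Ucp1 overlapped, and all 4 tested genes of the list had a log2 fold change above 0. In bulk tissue, fewer cells of a type and less RNA per cell cannot be told apart. Libraries held 37288174 to 51136331 counts, of which mitochondrially encoded genes took 60.5% to 67.0%. Zeb2 itself, deleted in cardiomyocytes but counted in all cells, was at 61.3, 116 and 71.9 CPM in WT, against 59.6, 72.6 and 66.5 CPM in Zeb2 cKO (log2 fold change -0.33, standard error 0.25, edgeR adjusted p = 0.957), so the counts do not check the deletion.

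No member differed between the genotypes beyond the spread between mice. Fbxo32, Foxo1, Foxo3 and Foxo4 had a log2 fold change below 0 and the 3 MuRF genes one above 0, and the libraries of both groups overlapped for each. The 4 below 0 of 7 stand beside 51.4% of all genes tested. In the quasi-likelihood test of edgeR, with Benjamini-Hochberg adjustment over the 14746 genes, 0 of the 7 passed an adjusted p of 0.05, where 0% of all genes did, and 0 of the 7 had an unadjusted p under 0.05, where 1.9% did. DESeq2 also called 0 of the 7. Groups that do not overlap in CPM were found for 0 of the 7 and for 6.36% of all genes tested.

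**Figure D1:**
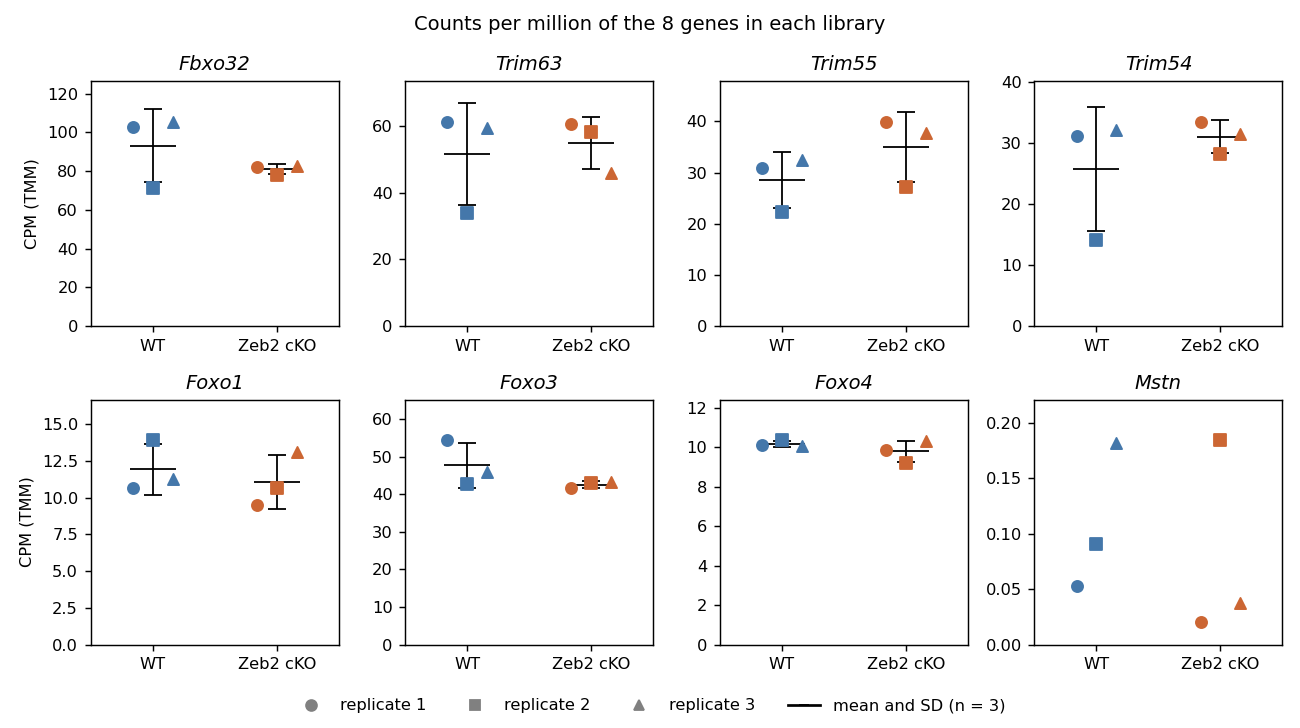
CPM of the 8 genes in each library (TMM-scaled), 1 panel per gene with its own vertical axis from 0. Each point is 1 mouse, marked by its replicate number, and the line and bar are mean and SD (n = 3), left out for Mstn with its few counts. The WT and Zeb2 cKO points overlap in every panel, and the square of WT replicate 2 is the lowest point for the 4 ligase genes.

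Among the ligases, Fbxo32 (ENSMUSG00000022358, chr15:58175879-58214932, minus strand of GRCm38) had the highest CPM. It was at 103, 71.3 and 105 CPM in WT replicates 1, 2 and 3 (93.2 ± 19.0, mean ± SD, n = 3), against 82.1, 77.9 and 82.9 CPM in Zeb2 cKO replicates 1, 2 and 3 (81.0 ± 2.66, n = 3). The 3 Zeb2 cKO values lay within the WT range, between WT replicate 2 and the other WT libraries. Its log2 fold change was -0.20 (standard error 0.18, 95% interval -0.62 to 0.21, edgeR adjusted p = 0.957, two-sided exact permutation test p = 0.4, where 3 mice against 3 cannot go below 0.1). The interval reaches from a level 34.9% lower to one 15.9% higher in Zeb2 cKO hearts. The antisense gene Gm15943 shares 186 exon bases with Fbxo32 on the opposite strand, and it was at 2 to 4 counts per library beside 3131 to 4453 for Fbxo32.

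Trim63 (MuRF1, ENSMUSG00000028834, chr4:134315120-134329629, plus strand) was at 61.3, 33.9 and 59.4 CPM in WT (51.5 ± 15.3, n = 3), against 60.7, 58.1 and 45.9 CPM in Zeb2 cKO (54.9 ± 7.89, n = 3). WT replicate 2 was the lowest library and Zeb2 cKO replicate 3 the next, with the other 4 between 58.1 and 61.3. The log2 fold change was 0.093 (standard error 0.25, interval -0.49 to 0.68, edgeR adjusted p = 0.967, exact permutation p = 0.9). The interval allows a level 28.8% lower or 59.8% higher.

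Trim55 (MuRF2, ENSMUSG00000060913, chr3:19644474-19692421, plus strand) was at 30.9, 22.4 and 32.4 CPM in WT (28.6 ± 5.41, n = 3), against 39.9, 27.2 and 37.8 CPM in Zeb2 cKO (35.0 ± 6.80, n = 3). Zeb2 cKO replicates 1 and 3 lay above all WT libraries and replicate 2 lay below the WT replicates 1 and 3. Of the 7 tested members, with all libraries, it had the largest log2 fold change in size, 0.29 (standard error 0.20, interval -0.19 to 0.78, edgeR adjusted p = 0.957, exact permutation p = 0.3).

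Trim54 (MuRF3, ENSMUSG00000062077, chr5:31116712-31137630, plus strand) was at 31.2, 14.1 and 32.2 CPM in WT (25.8 ± 10.2, n = 3), against 33.5, 28.2 and 31.6 CPM in Zeb2 cKO (31.1 ± 2.71, n = 3). Again WT replicate 2 stood low, with the other 5 libraries between 28.2 and 33.5. The log2 fold change of 0.27 (standard error 0.30, interval -0.45 to 0.99, edgeR adjusted p = 0.957, exact permutation p = 0.6) had the widest interval of the members. The annotation places an antisense gene, Gm15469, over 382 exon bases of Trim54, and the deposited counts do not include that gene.

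Foxo3 (ENSMUSG00000048756, chr10:42181841-42276755, minus strand), the FOXO gene with the highest CPM, was at 54.3, 42.7 and 45.8 CPM in WT (47.6 ± 5.99, n = 3), against 41.6, 42.9 and 43.3 CPM in Zeb2 cKO (42.6 ± 0.893, n = 3). The Zeb2 cKO libraries and WT replicate 2 were within 2 CPM of each other, and WT replicate 1 was the highest. The log2 fold change was -0.16 (standard error 0.13, interval -0.46 to 0.14, edgeR adjusted p = 0.957, exact permutation p = 0.3).

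Foxo1 (ENSMUSG00000044167, chr3:52268336-52353221, plus strand) was at 10.6, 13.9 and 11.2 CPM in WT (11.9 ± 1.73, n = 3), against 9.47, 10.6 and 13.1 CPM in Zeb2 cKO (11.1 ± 1.84, n = 3). Unlike the ligases, it was highest in WT replicate 2. Its log2 fold change was -0.11 (standard error 0.17, interval -0.51 to 0.29, edgeR adjusted p = 0.957, exact permutation p = 0.5). An antisense gene, Gm20402, shares 674 exon bases with Foxo1 and had 0 counts in every library.

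Foxo4 (ENSMUSG00000042903, chrX:101254528-101260873, plus strand) was the steadiest member, at 10.1, 10.3 and 10.1 CPM in WT (10.2 ± 0.154, n = 3), against 9.83, 9.22 and 10.3 CPM in Zeb2 cKO (9.78 ± 0.539, n = 3). Its log2 CPM spanned 0.17 over the 6 libraries, and 2.25% of the genes tested spanned less. The log2 fold change was -0.056 (standard error 0.11, interval -0.31 to 0.20, edgeR adjusted p = 0.957, exact permutation p = 0.3), which bounds any change to 19.3% lower or 14.6% higher.

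Mstn (ENSMUSG00000026100, chr1:53061640-53068079, plus strand) was near the limit of detection. It had 2, 4 and 7 counts in WT replicates 1, 2 and 3 and 1, 8 and 2 counts in the Zeb2 cKO replicates, or 0.0200 to 0.184 CPM. At this depth the counts of both groups ranged over the same values, 1 library of each reaching 7 or 8. Mstn was not in the main edgeR test, and its exact permutation p was 0.5.

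Over the 6 libraries the MuRF genes spread more than the other tested members, Trim54 most, but this order rested on WT replicate 2. The log2 CPM spanned 1.25 over the 6 libraries for Trim54, 0.85 for Trim63, 0.84 for Trim55 and 0.56 for Fbxo32. In the same order, 79.1%, 60.8%, 59.7% and 38.9% of the genes tested spanned less. The spans were 0.55 for Foxo1 and 0.39 for Foxo3, with 37.9% and 21.5% of genes below them. Over the 5 libraries without WT replicate 2 the spans were 0.25 for Trim54, 0.42 for Trim63, 0.55 for Trim55, 0.44 for Fbxo32, 0.47 for Foxo1 and 0.39 for Foxo3, so Trim54 went from the widest to the narrowest of these 6. In WT replicate 2, whose cardiomyocyte markers were low, log2 CPM, centred on the mean of all 6, was -0.27 for Fbxo32, -0.62 for Trim63, -0.48 for Trim55 and -0.96 for Trim54, and 0.29 for Foxo1, -0.071 for Foxo3 and 0.053 for Foxo4. The part of the cell makeup of that library in these values was not tested.

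Leaving out WT replicate 2 moved the ligases most. Fbxo32 then reached a log2 fold change of -0.36 (standard error 0.091, interval -0.57 to -0.15), since the other WT libraries, at 103 and 105 CPM, lie above all 3 Zeb2 cKO libraries. Its unadjusted p was 0.00495 in edgeR, rank 21 of 14966 genes, and its adjusted p 0.9997, so it did not pass the test. It was the 1 of 7 members with an unadjusted p under 0.05, beside 2.63% of all genes in that fit. The log2 fold change of Trim54 came close to 0 without that library, at -0.023, that of Trim63 was -0.13 and that of Trim55 0.15 (interval -0.24 to 0.53), so the direction of Trim63 and Trim54 turned. Foxo3 was at -0.23 (interval -0.48 to 0.014), Foxo1 at 0.019 and Foxo4 at -0.040.

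**Figure D2:**
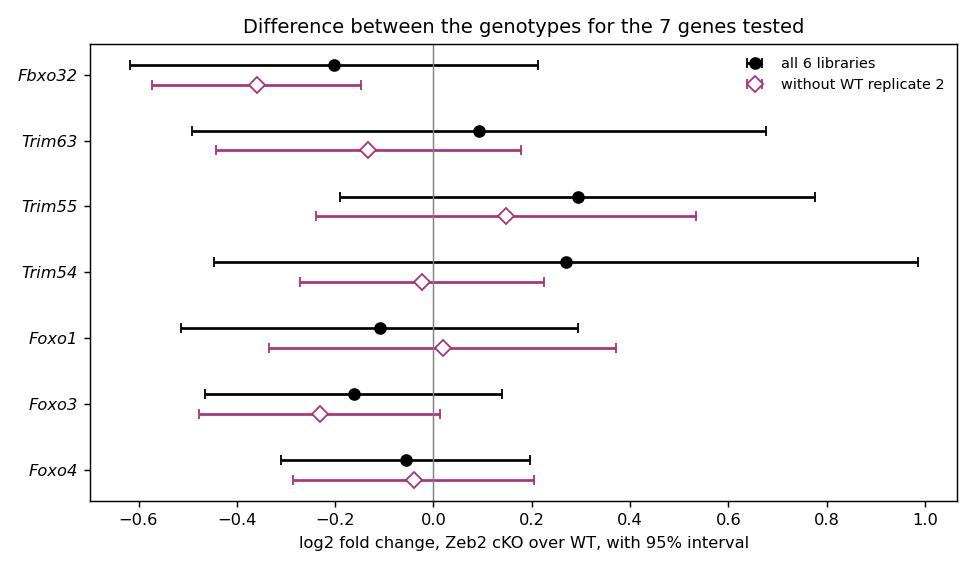
Log2 fold change of Zeb2 cKO over WT with its 95% interval from edgeR for the 7 genes tested, with all 6 libraries (black circles) and without WT replicate 2 (open diamonds). With all libraries every interval includes 0, and without WT replicate 2 the interval of Fbxo32, -0.57 to -0.15, lies below 0 before adjustment over all genes.

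Since the summed CPM of the cardiomyocyte markers differed between libraries, the members were also expressed per 1000000 counts of the 20 cardiomyocyte marker genes, a scale that assumes that these markers do not change with genotype. Of the 20, only Nppa, the atrial natriuretic peptide gene, had an unadjusted p under 0.05 in edgeR, and it was lower in Zeb2 cKO. The scale is mostly that of Ttn (titin), which took 53.8% to 57.3% of these counts. Fbxo32 was then at 1305, 1734 and 1462 in WT (1500 ± 217, n = 3) and at 1056, 1129 and 1292 in Zeb2 cKO (1159 ± 120, n = 3), with all 3 Zeb2 cKO libraries below all 3 WT libraries (exact permutation p = 0.1, the smallest possible). Of all genes tested 1.11% were lower in this way, and of the 8 members 1. WT replicate 2, the lowest WT library for Fbxo32 in CPM, was the highest on this scale. Per 1000000 counts of the other 19 markers, without Ttn, Fbxo32 was at 2899, 3907 and 3420 in WT. In Zeb2 cKO it was at 2442, 2446 and 2975, and the groups overlapped. In edgeR with the sums of all 20 as library sizes the log2 fold change of Fbxo32 was -0.37 (unadjusted p = 0.117, adjusted p = 0.904), where the median of all genes was -0.24. With Ttn left out of the sums it was -0.38 (unadjusted p = 0.111, adjusted p = 0.881). Thus the lack of overlap rested on Ttn, but the size of the difference did not.

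Trim63 was level on this scale, at 778, 824 and 823 in WT (808 ± 26.1, n = 3) and at 782, 842 and 716 in Zeb2 cKO (780 ± 63.0, n = 3). In WT replicate 2 it was no longer low, so Trim63 and the cardiomyocyte markers were low there to a like degree. Trim55 was at 393, 544 and 449 in WT and at 514, 395 and 589 in Zeb2 cKO, and Trim54 at 396, 342 and 446 in WT and at 432, 408 and 493 in Zeb2 cKO. Both overlapped between the groups, and Trim54 was still lowest in WT replicate 2. The FOXO genes and Mstn overlapped as well. Foxo3 ranged from 535 to 1039, Foxo1 from 122 to 338 and Foxo4 from 127 to 251, each highest in WT replicate 2.

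**Figure D3:**
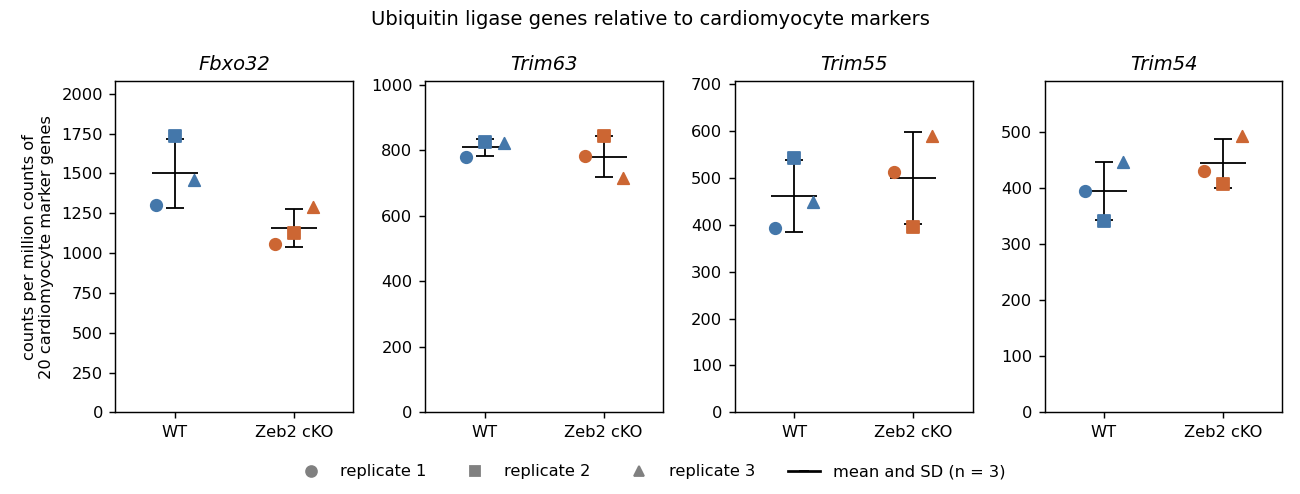
Counts of the 4 ligase genes per 1000000 counts of 20 cardiomyocyte marker genes, 1 point per mouse, with mean and SD (n = 3), on vertical axes from 0. The Fbxo32 points of Zeb2 cKO (1056 to 1292) lie below those of WT (1305 to 1734), and the points of the other genes overlap. Without Ttn the Fbxo32 groups overlap too, while the edgeR log2 fold change is -0.38, against -0.37 with Ttn.

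Levels were compared between genes as CPM per kb of merged exons. Over the 6 libraries the means were 19.8 for Trim54, 18.7 for Trim63, 12.5 for Fbxo32 and 12.0 for Trim55, and below these 5.96 for Foxo3, 2.86 for Foxo4, 1.33 for Foxo1 and 0.0350 for Mstn. The 4 ligase genes were thus above the FOXO genes, and their ranges, 9.81 to 23.4 for Trim54, 11.9 to 21.6 for Trim63, 10.2 to 15.1 for Fbxo32 and 8.42 to 15.02 for Trim55, overlapped between neighbours. From Trim55 downwards neighbouring ranges did not overlap, with 5.49 to 7.17 for Foxo3, 2.65 to 2.97 for Foxo4, 1.09 to 1.604 for Foxo1 and 0.00739 to 0.0682 for Mstn. With the length of the longest transcript in place of merged exons, Trim63 (28.2) came above Trim54 (19.9) and the other 6 kept their place.

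**Figure D4:**
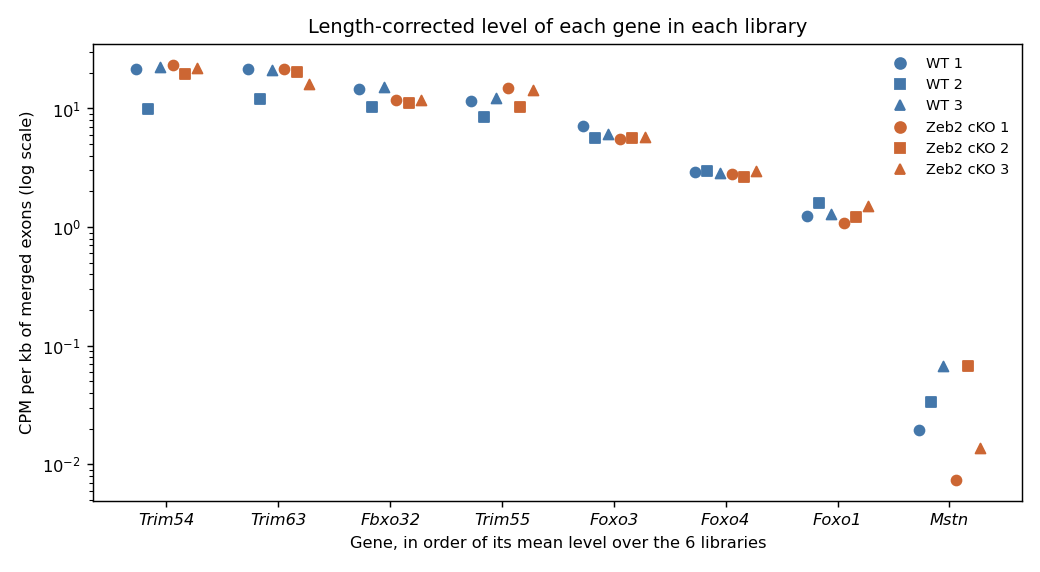
Length-corrected level (CPM per kb of merged exons, log axis) of each gene in each of the 6 libraries, ordered by its mean. The ligases lie at 8.42 to 23.4, Foxo3 at 5.49 to 7.17, Foxo4 and Foxo1 below it, and Mstn at 0.00739 to 0.0682.

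Within the FOXO family the order was the same in the 6 libraries, whereas among the MuRF genes the leading gene varied. On the length-corrected scale Foxo3 made up 55.3% to 63.5% of the sum of the FOXO genes, Foxo4 25.7% to 30% and Foxo1 10.9% to 15.7%. Among the MuRF genes, Trim54 made up 32.5% to 42.0%, Trim63 30.8% to 40.6% and Trim55 20.4% to 27.9%. The ratio of Trim63 to Trim54 ran from 0.734 in Zeb2 cKO replicate 3 to 1.22 in WT replicate 2. WT replicate 2 had the lowest share of Trim54 and the highest of Trim55, and also the highest share of Foxo1.

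Ratios between members on that scale, which do not depend on the size of a library, overlapped between the groups in 19 of 21 pairs. The exceptions, 2 of 21, both had Fbxo32 as numerator. Over all pairs of tested genes with counts in every library, the groups did not overlap in 6.84%, so 2 of 21 is close to that background. Fbxo32 over Trim55 was 1.27, 1.22 and 1.24 in WT and 0.784, 1.09 and 0.835 in Zeb2 cKO (difference of log2 means -0.47). Fbxo32 over Trim54 was 0.678, 1.04 and 0.674 in WT and 0.504, 0.569 and 0.540 in Zeb2 cKO (difference -0.54). All 3 Zeb2 cKO mice were below all 3 WT mice for both ratios, including WT replicate 2, but the pairs share Fbxo32 and were picked out of 21, so these values are a description with no test.

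The genes with the pattern most like that of Fbxo32 over the 6 libraries, by the smallest root mean square distance of centred log2 CPM, were Hspb1 (0.0516), a small heat shock protein, Dnaja4 (0.0562), a co-chaperone of Hsp70, and Hecw2 (0.0571), a HECT-type ubiquitin ligase. For Trim63 they were Neurl2 (0.0287), a substrate-binding subunit of a ubiquitin ligase of striated muscle, Sccpdh (0.0403) and Nsun4 (0.0404). The nearest other member lay further off for both, Foxo3 for Fbxo32 (0.140, rank 339) and Trim54 for Trim63 (0.219, rank 2459). Trim54 was also the nearest member for Trim55 (0.247), Trim63 for Trim54 (0.220), Foxo4 for Foxo1 (0.1602) and for Foxo3 (0.129), and Foxo3 for Foxo4 (0.129). These distances describe 6 libraries and carry no test.

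Promoter sequence is shown for Trim63 and Trim54, each the other's nearest member, as the 250 bases before the RefSeq start of each gene (GRCm38.p6). The windows of 5 members (Trim63, Trim54, Foxo1, Foxo3 and Mstn) were searched for GTAAACA, a FOXO binding motif (TGTTTAC on the other strand), and for CACCTG, an E-box bound by ZEB factors (CAGGTG on the other strand), which do not overlap each other. The Trim63 window is chr4:134314870-134315119 and the Trim54 window chr5:31116362-31116611, both on the plus strand, and capitals mark the 1 match found.
Trim63: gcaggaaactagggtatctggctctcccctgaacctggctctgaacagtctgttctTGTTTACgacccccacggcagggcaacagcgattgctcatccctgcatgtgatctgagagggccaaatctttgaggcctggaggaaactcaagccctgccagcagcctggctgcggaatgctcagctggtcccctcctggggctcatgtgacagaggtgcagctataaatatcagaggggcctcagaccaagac
Trim54: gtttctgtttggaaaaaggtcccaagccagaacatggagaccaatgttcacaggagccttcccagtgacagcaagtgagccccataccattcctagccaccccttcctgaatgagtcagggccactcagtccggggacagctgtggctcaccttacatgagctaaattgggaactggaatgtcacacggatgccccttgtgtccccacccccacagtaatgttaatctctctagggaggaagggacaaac
The Trim63 match begins at position -194 from the start, and GTAAACA or its reverse occurs in 3.17% of 32851 promoter windows of this length. CACCTG or its reverse, found in 17.2% of all windows, was in none of the 5. A match in such a window is a description and not a binding site.

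Genes around the members were read by lists. Of 23 FOXO target genes, 0 passed an adjusted p of 0.05 in edgeR, 2 had an unadjusted p under 0.05 and were lower in Zeb2 cKO, and none was higher, beside 127 of 14746 genes (0.861%) that were lower at that p. The median log2 fold change was -0.074 with 16 of 23 below 0, beside -0.0069 and 7579 of 14746 for all genes tested. The pair were Txnip, an inhibitor of thioredoxin, and Ddit4 (REDD1), an inhibitor of mTORC1. Txnip was at 324, 349 and 306 CPM in WT, against 150, 212 and 256 CPM in Zeb2 cKO, lower in all 3 mice (log2 fold change -0.66, standard error 0.22, edgeR adjusted p = 0.957). Ddit4 was at 7.19, 4.15 and 4.69 CPM in WT, against 2.498, 2.74 and 4.37 CPM in Zeb2 cKO (log2 fold change -0.73, standard error 0.30, edgeR adjusted p = 0.957), and its groups overlapped. Next in the list was Tgif1, a corepressor (log2 fold change -1.02, edgeR adjusted p = 0.957), which was at 9.52 CPM in WT replicate 2 and at 1.68 to 3.15 CPM in the others.

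Insulin, IGF1 and Akt input to FOXO was measured by 19 genes, of which 0 passed the adjusted test in edgeR and 0 had an unadjusted p under 0.05. The median log2 fold change was -0.057, with 12 of 19 below 0. Igf1r, the IGF1 receptor, was at 20.9, 18.8 and 19.8 CPM in WT, against 13.9, 15.8 and 19.99 CPM in Zeb2 cKO (log2 fold change -0.26, edgeR adjusted p = 0.957). Igf1, its ligand, was at 21.7, 73.4 and 28.7 CPM in WT, against 21.9, 24.3 and 32.7 CPM in Zeb2 cKO (-0.65, edgeR adjusted p = 0.957), highest in WT replicate 2, and without that library it was at 0.067. Foxo6, the remaining FOXO gene, was at 4 to 21 counts per library and higher in all 3 Zeb2 cKO mice (0.70, edgeR adjusted p = 0.957). Without WT replicate 2, the library with 4 counts, it was at 0.29.

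In myostatin and activin signalling 18 of 19 genes were tested, 0 of them with an adjusted or unadjusted p under 0.05 in edgeR, and 15 were below 0 with a median of -0.30. Smad7, an inhibitory SMAD, was at 10.5, 10.5 and 10.9 CPM in WT, against 8.55, 8.37 and 9.86 CPM in Zeb2 cKO, lower in all 3 mice (log2 fold change -0.26, standard error 0.12, edgeR adjusted p = 0.957). Ltbp3, a latent TGF-beta binding protein, had a log2 fold change of -1.05 (edgeR adjusted p = 0.957) with 56.1 CPM in WT replicate 2 and 11.2 to 20.5 CPM in the others. Fst, which encodes the myostatin and activin antagonist follistatin, was at 12.9 CPM in WT replicate 2 and at 0.451 to 1.499 CPM in the others (log2 fold change -2.05, edgeR adjusted p = 0.957). Without that library the median of the list was -0.028.

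**Figure D5:**
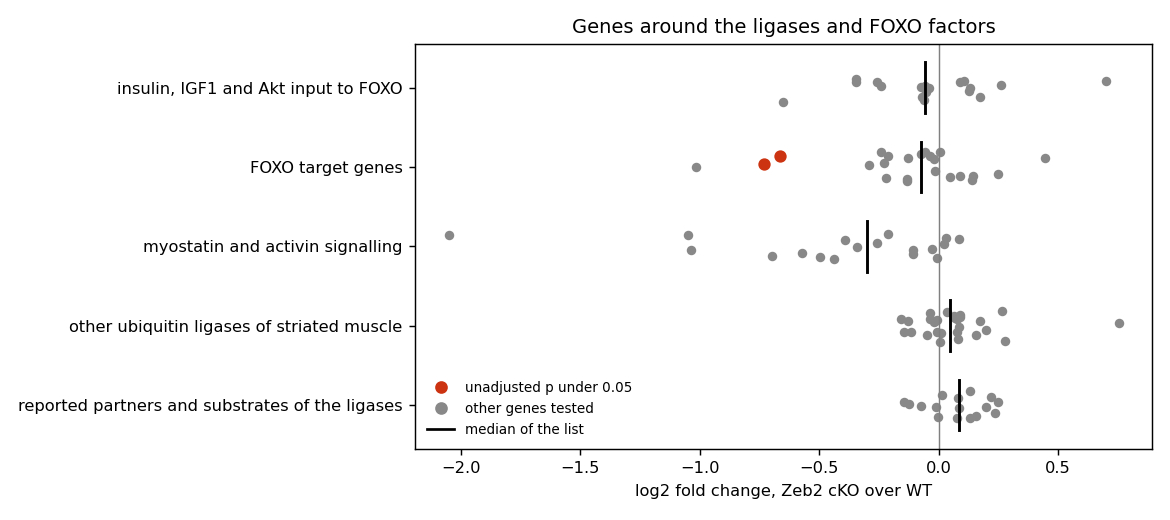
Log2 fold change of Zeb2 cKO over WT for the tested genes of 5 lists, 1 point per gene, with the list's median as a black line. Red points are Txnip and Ddit4, the 2 genes with an unadjusted edgeR p under 0.05, and no gene passed after adjustment.

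Other ubiquitin ligases and conjugating enzymes of striated muscle (28 genes) also had 0 with an adjusted or unadjusted p under 0.05 in edgeR, and a median log2 fold change of 0.049 with 17 of 28 above 0. Without WT replicate 2 this median turned to -0.058. The 3 genes that came first by p were Kbtbd13, a Cullin-3 adaptor, at a log2 fold change of 0.75, Fbxo21, an F-box protein, at 0.26, and Nedd4l, a HECT-type ligase, at 0.20 (edgeR adjusted p = 0.957 for each). Without WT replicate 2 they were at 0.46, 0.12 and 0.051. Reported partners and substrates of the ligases (16 of 17 tested) had 0 as well, with a median of 0.084. Without WT replicate 2 this median turned to -0.079, and Pdk2 had an unadjusted edgeR p under 0.05. First by p in that list, with all libraries, were Eif3f, a translation initiation factor targeted by atrogin-1, at -0.15, Ppp3ca, a calcineurin catalytic subunit, at -0.12, and Tnni3, cardiac troponin I, at 0.22 (edgeR adjusted p = 0.957 for each). Without WT replicate 2 they were at -0.053, -0.029 and -0.023. Tnni3 was at 635 CPM in WT replicate 2 and at 906 to 1306 CPM in the other libraries, low there like the ligase genes.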

How the data were processed

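RNA-seq counts of 6 heart libraries, 3 WT and 3 Zeb2 cKO, were analysed, grouped by the sample labels. Per the methods, the authors depleted ribosomal RNA, made stranded libraries, and aligned and counted single-end reads against Gencode M4 with the STAR workflow, and the submitters' processing notes name GRCm38, mm10 and DESeq. The authors deposited raw counts per gene, with no normalization. The STAR version, the strand option and the handling of multi-mapping reads are not given in the sources used here. All columns of the table were matched to a sample.

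From these counts, symbols, coordinates and lengths were assigned from Gencode M21 (GRCm38), with 14573 of 14746 tested genes named. Counts were normalized with TMM, filtered with filterByExpr and tested with glmQLFit and glmQLFTest in edgeR 4.0.16 (R 4.3.3), genotype as the 1 factor, with Benjamini-Hochberg adjustment over all genes and a prior count of 0.125. Intervals use the quasi-likelihood F value and its degrees of freedom. Exact permutation tests were two-sided on the log2 of TMM-scaled CPM with an offset of 0.01. DESeq2 1.42.0 was an alternative. Coding sequences were aligned with MAFFT 7.526, copies searched with BLAST 2.17.0 (Python 3.11.15), and promoters taken from RefSeq. Mitochondrially encoded genes left 14301225 to 19024394 counts per library for other genes. Counting error is small but for genes of a few counts, so precision rests on how far mice of a group differ. The fit was first tested on simulated data.

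The members and lists were chosen with earlier results of these data known. Named were the 8 members, the 3 genes of each pathway list with the smallest unadjusted p, the 3 nearest patterns of Fbxo32 and Trim63, the nearest member of each, and Zeb2. Single marker genes, such as Nppa, Ttn, Mybpc2, Myl1, Plin4 and Adig, were also named by their values. So were Sgk1, Klf15 and Pdk2, by their unadjusted p without WT replicate 2. Replicate numbers 1, 2 and 3 occur in both groups but mark different mice, and were used as pairs in 1 alternative. Other alternatives covered size factors, library sizes from cardiomyocyte markers (with and without Ttn), mitochondrially encoded genes, the filter, dispersions, the prior count, transcript length and leaving out each library.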

Additional observations from a re-analysis of the deposited data

How the results depend on the processing

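With edgeR, 0 genes passed an adjusted p of 0.05 in either direction under every alternative tried, including without each library in turn (0 to 0), and 0 of the 7 tested members did. DESeq2 called 2 genes higher, Slc46a2 and Mrap2 (log2 fold changes of 4.20 and 6.61, DESeq2 adjusted p = 0.0378 and 0.0446), named here after their values were seen. At an unadjusted p under 0.05 there were 280 genes, 361 with DESeq2, 600 without a filter and 164 with cardiomyocyte library sizes (148 without Ttn), and 122 (without Zeb2 cKO replicate 1) to 1134 (without WT replicate 1) with 1 library left out. Of the members' log2 fold changes, 100 values under alternatives stayed on their side and 5 turned sign: Trim63 to -0.052 with cardiomyocyte library sizes and to -0.062 with Ttn left out of them, an alternative chosen after seeing the data, and without WT replicate 2 Trim63 to -0.13, Trim54 to -0.023 and Foxo1 to 0.019. Cardiomyocyte library sizes shifted all genes (median -0.24 with and without Ttn), and the other 3 turned with that 1 library left out. Without a filter Mstn was at -0.46 with an unadjusted edgeR p of 0.600. Over single libraries left out, the values ranged from -0.36 to -0.10 for Fbxo32, -0.13 to 0.24 for Trim63, -0.023 to 0.46 for Trim54, 0.15 to 0.45 for Trim55, -0.25 to 0.019 for Foxo1, -0.23 to -0.056 for Foxo3 and -0.095 to -0.013 for Foxo4.

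Without WT replicate 2, 5 genes of the pathway lists of 104 tested had an unadjusted p under 0.05 and were lower, against 2 with all libraries, beside 161 of 14966 lower genes in that fit (393, or 2.63%, in both directions): Sgk1, Ddit4, Klf15, Txnip and Pdk2 (adjusted p = 0.9997 in edgeR for each). Same-numbered samples did not deviate together (correlations of 0.088, -0.14 and -0.087), and with the replicate number as a replicate block 0 genes were called and 247 had an unadjusted p under 0.05. Mice are separate animals per the design text, so p-values measure the spread between 3 mice a group. Mstn is limited by depth.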
